A study of Mus musculus with 20 samples.

Results

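The Schlafen family of the mouse was described in RNA sequencing libraries of whole ovary, taken from animals with or without an orthotopic ovarian tumour and with or without lipid nanoparticles that carry interferon-γ (IFN-γ) mRNA. The members were the rows named Slfn1, Slfn2, Slfn3, Slfn4, Slfn5, Slfn8 and Slfn9, which are 7 of the 20960 genes in the table, and all 7 passed the filter on low counts. Per the series text the animals were C57BL/6 mice, and the tumour came from ID8Luci cells, a luciferase-labelled mouse ovarian surface epithelial line, put into the ovarian bursa once that pouch had been enlarged with particles carrying mRNA for follicle-stimulating hormone. The 4 labelled groups held 5 libraries each. Control had no treatment entry and no tumour in its label, Model carried ovarian cancer alone, LNPIFN-Y carried ovarian cancer and received the particle without a targeting prefix, and ptLNPIFN-Y carried ovarian cancer and received the particle with the prefix pt, which the series text uses for peptide targeting. The labels do not say whether Control ovaries also received the hormone particles, give no age or dose, and do not state whether each library is an animal of its own, so the p-values measure only the spread between these libraries. There was no arm with an empty particle, so the IFN-γ mRNA and its carrier cannot be told apart.

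Schlafen genes encode cytosolic and nuclear proteins with a shared N-terminal core that binds, and in several members cleaves, transfer RNA. They are known as interferon-inducible genes of leukocytes and other cells, and as regulators of lymphocyte quiescence, of translation and of virus growth. The short forms Slfn1 and Slfn2 hold little more than the core, Slfn3 and Slfn4 are intermediate forms, and the long forms Slfn5, Slfn8 and Slfn9 add a helicase-like domain. In the annotated transcripts the longest reading frame has 337 codons in Slfn1, 378 in Slfn2, 517 in Slfn3, 602 in Slfn4, 884 in Slfn5 and 910 in both Slfn8 and Slfn9.

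The 7 genes lie together on chromosome 11 (build GRCm38.p6, positions of the deposited table, IDs from Entrez). Slfn5 (ID 327978, chr11:82951349-82964850, plus strand) comes first, and Slfn9 (237886, chr11:82974316-82991830) and Slfn8 (276950, chr11:83002125-83020810) follow on the minus strand. Slfn2 (20556, chr11:83065112-83070678), Slfn1 (20555, chr11:83116820-83122670), Slfn4 (20558, chr11:83175172-83190216) and Slfn3 (20557, chr11:83191330-83215154) follow on the plus strand. The stretch from the first start to the last end spans 263.8 kb and holds 0 other protein-coding genes of the table.

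Promoter windows were searched because the family is known for its answer to interferon. Each window holds 250 bases before and 50 bases after a transcript start (RefSeq, GRCm38.p6). The letters GAAANNGAAA, or TTTCNNTTTC on the other strand, are a core of the interferon-stimulated response element, which interferon-activated factors and the IRF factors bind. Of all 32851 windows 3.44% held them. Slfn8 and Slfn9 held the same 10 letters, TTTCGTTTTC, at positions -48 and -45 from the start, and Slfn5 held GAAAAAGAAA at position -155, directly before a run of A. The Slfn5 window begins at 82951852 and lies inside the gene as deposited, which starts at 82951349. The bases before that deposited start were not searched. Slfn1, Slfn2, Slfn3 and Slfn4 held no match in these windows. The 3 windows with a match are shown with the match in capitals, beside that of Slfn1, the member with the largest fold change.
Slfn8, chr11:83020761-83021060, minus strand: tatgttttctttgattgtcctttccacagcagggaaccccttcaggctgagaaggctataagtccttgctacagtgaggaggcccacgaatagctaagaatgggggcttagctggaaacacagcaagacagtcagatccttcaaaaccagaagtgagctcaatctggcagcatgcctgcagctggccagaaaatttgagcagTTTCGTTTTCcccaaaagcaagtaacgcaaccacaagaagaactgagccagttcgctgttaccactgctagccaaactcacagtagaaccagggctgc
Slfn9, chr11:82991781-82992080, minus strand: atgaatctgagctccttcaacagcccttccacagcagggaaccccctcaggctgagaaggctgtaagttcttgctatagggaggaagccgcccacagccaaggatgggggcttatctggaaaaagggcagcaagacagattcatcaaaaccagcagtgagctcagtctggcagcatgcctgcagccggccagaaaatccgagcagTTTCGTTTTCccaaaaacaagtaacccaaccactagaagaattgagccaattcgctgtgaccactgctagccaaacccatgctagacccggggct
Slfn5, chr11:82951852-82952151, plus strand: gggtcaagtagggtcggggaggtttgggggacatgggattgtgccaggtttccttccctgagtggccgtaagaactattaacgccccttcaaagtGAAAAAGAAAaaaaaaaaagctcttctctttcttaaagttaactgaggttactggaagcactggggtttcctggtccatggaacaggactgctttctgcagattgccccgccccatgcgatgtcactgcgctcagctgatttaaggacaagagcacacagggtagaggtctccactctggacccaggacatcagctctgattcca
Slfn1, chr11:83116570-83116869, plus strand: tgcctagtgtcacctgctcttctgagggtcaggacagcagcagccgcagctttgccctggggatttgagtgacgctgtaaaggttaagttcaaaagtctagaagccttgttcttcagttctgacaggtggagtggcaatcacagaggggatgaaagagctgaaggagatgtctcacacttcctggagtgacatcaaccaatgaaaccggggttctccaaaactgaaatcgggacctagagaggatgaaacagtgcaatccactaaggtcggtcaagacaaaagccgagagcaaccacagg
The letters TTCNNNGAA, the core of the gamma-activated site, which read the same on both strands, were in 8.3% of all windows and in none of the 7 members'. A match is a description of letters and not a site, and its absence speaks only of this window. RefSeq gave Slfn8 a second start, whose window holds the same match at position -136.

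Total counts lay between 16496793 and 17218043 per library. Values are CPM, counts scaled to library depth with TMM factors, and folds are log2 values with standard errors from 1 edgeR quasi-likelihood fit of all 20 libraries, adjusted over 15723 genes with a threshold of 0.05. The tissue label was checked against markers. The summed CPM of 8 granulosa cell genes ran from 1624 to 3086 in Control and from 617 to 2612 in Model, against 183 to 1837 with LNPIFN-Y and 220 to 2310 with ptLNPIFN-Y, and the oviduct genes spread from 11.2 to 15410 CPM over the libraries. The median oviduct sum was 4890 CPM in Control and 3415 in Model, against 67.9 with LNPIFN-Y and 96.3 with ptLNPIFN-Y. The egg-coat gene Zp3 had a count of 0 in replicate 5 of each particle group. Without these libraries the count of Schlafen genes called against Model was 5 for either particle, as with them.

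Each particle group stood above Model in 5 Schlafen genes, namely Slfn1, Slfn2, Slfn5, Slfn8 and Slfn9. Slfn1 rose most, 13.5-fold in LNPIFN-Y and 16.2-fold in ptLNPIFN-Y, and Slfn8 rose 7.81-fold and 7.68-fold. Slfn3 and Slfn4, the intermediate forms, did not pass the test. In bulk tissue more cells of a type and more RNA per cell cannot be told apart. In LNPIFN-Y against Model 5 of 7 members were higher and 0 lower, where 5.25% of all tested genes were higher and 0.566% lower, and the median log2 fold change of the members was 1.80 against -0.03 over all genes. In ptLNPIFN-Y against Model 5 of 7 were higher and 0 lower, where 6.05% were higher and 0.948% lower, with medians of 2.12 and -0.05. In these 5 genes every particle library lay above every Model library, a pattern found in 4.33% of all genes for LNPIFN-Y and in 4.83% for ptLNPIFN-Y. The particle contrasts share their Model libraries. Over all genes the calls were 825 higher and 89 lower in LNPIFN-Y and 951 higher and 149 lower in ptLNPIFN-Y. Library size alone in place of TMM moved the median of all genes to -0.129 and -0.178 and gave 751 higher and 219 lower, and 900 higher and 731 lower. Without Model 3 the higher genes numbered 1246 and 1578, while the same 5 members stayed called.

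**Figure D1:**
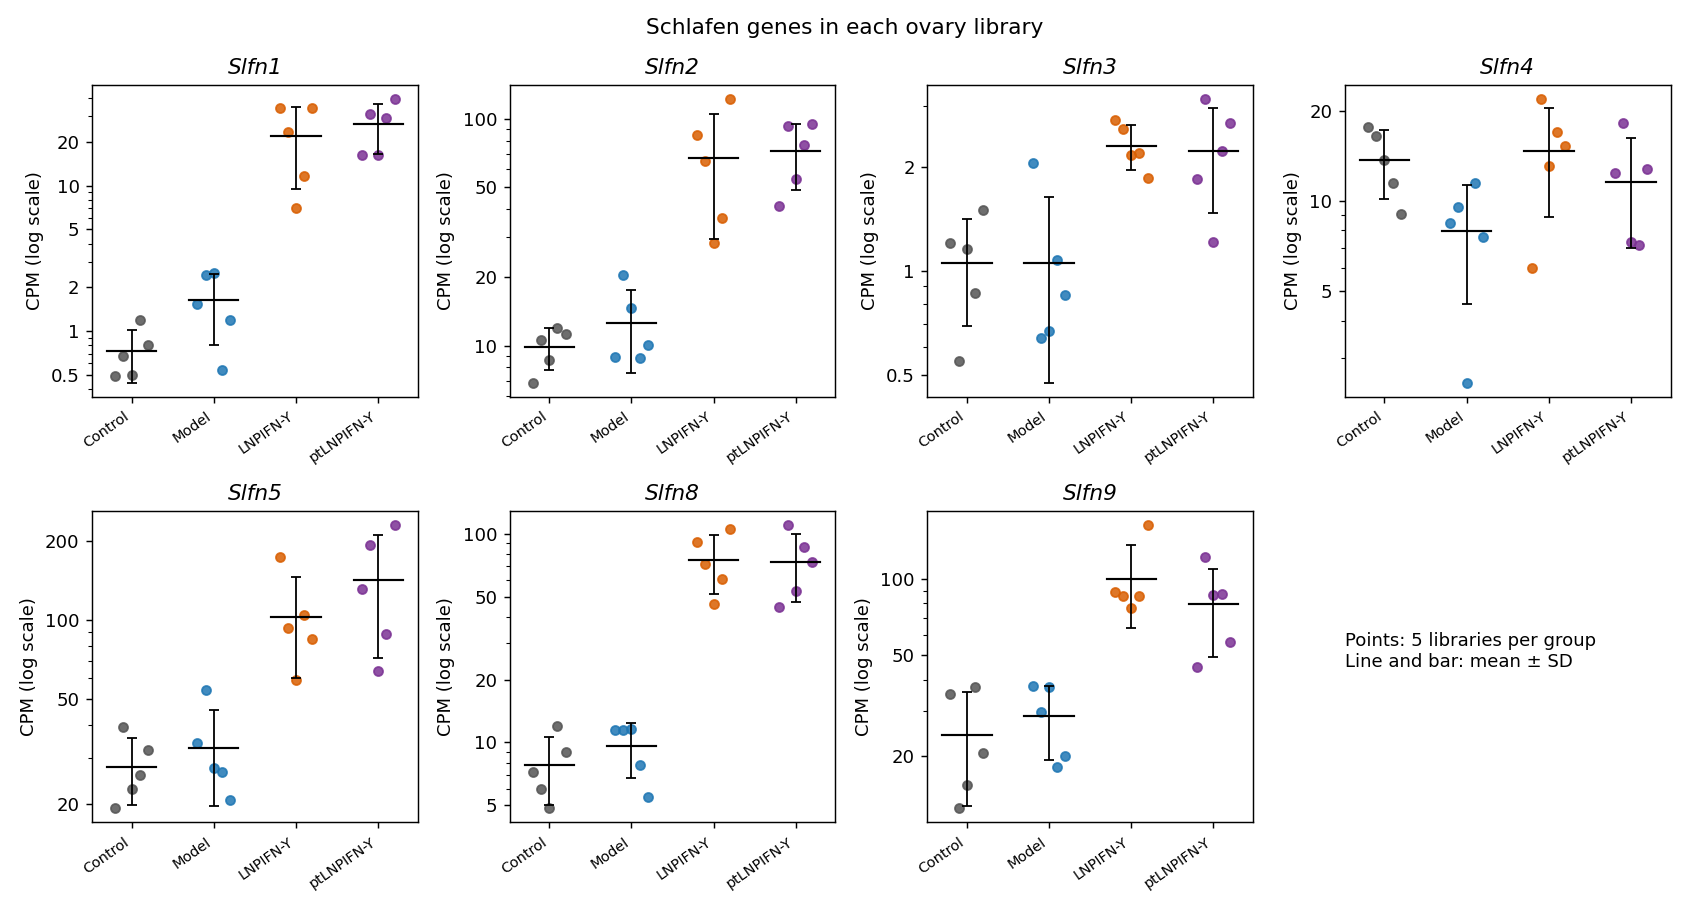
Level of each Schlafen gene (CPM, log scale) in every library of Control, Model, LNPIFN-Y and ptLNPIFN-Y; points are libraries and the line and bar are the mean and SD (n = 5). In Slfn1, Slfn2, Slfn5, Slfn8 and Slfn9 all 10 particle libraries lie above all 5 Model libraries. In Slfn3 and Slfn4 each particle group overlaps Model.

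Slfn1 is the founding member, named for its ability to slow the growth of developing T cells. It was close to absent in ovary without particles. In Control replicates 1 to 5 it was at 0.49, 0.668, 0.494, 1.18 and 0.803 CPM, from 9 to 22 counts per library. In Model it was at 1.53, 2.44, 2.49, 0.536 and 1.19 CPM. Model libraries 1, 2, 3 and 5 lay above all Control libraries and Model 4 lay among them. In LNPIFN-Y it was at 34.0, 23.3, 7.06, 11.7 and 34.5 CPM, and in ptLNPIFN-Y at 16.4, 31.2, 16.4, 29.4 and 39.5. The particle groups overlapped each other and neither overlapped Model. Control averaged 0.728 ± 0.286 CPM and Model 1.64 ± 0.836, whereas LNPIFN-Y averaged 22.1 ± 12.6 and ptLNPIFN-Y 26.6 ± 10.05 (SD, n = 5). The log2 fold change against Model was 3.75 ± 0.49 in LNPIFN-Y (SE, edgeR adjusted p 5.39e-05) and 4.02 ± 0.50 in ptLNPIFN-Y (2.41e-05). Only 48 and 58 of all tested genes had a higher log2 fold change than Slfn1 in these contrasts.

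Slfn2 holds T cells and monocytes in quiescence and protects transfer RNA from cleavage by angiogenin in activated T cells of the mouse. In Control it was at 6.87, 10.6, 8.63, 12.0 and 11.2 CPM, and in Model at 8.87, 20.4, 14.6, 8.80 and 10.0. Model 2 and Model 3 lay above all Control libraries and the other 3 lay among them. In LNPIFN-Y it reached 85.3, 65.2, 28.3, 36.7 and 122 CPM, and in ptLNPIFN-Y 41.4, 92.7, 54.2, 76.6 and 94.7. LNPIFN-Y 3, the lowest particle library, was still above Model 2, the highest Model library. On the log2 scale Slfn2 rose by 2.43 ± 0.37 in LNPIFN-Y (SE, edgeR adjusted p 0.000301) and by 2.52 ± 0.37 in ptLNPIFN-Y (0.000175). Of the transfer RNA cleavage genes, angiogenin (Ang) and its inhibitor (Rnh1), 0 of 2 passed the test in either direction in LNPIFN-Y or ptLNPIFN-Y against Model. Ang was at 0.46 ± 0.20 and 0.14 ± 0.20 and Rnh1 at 0.18 ± 0.11 and 0.05 ± 0.11 (log2 fold change ± SE, edgeR adjusted p from 0.221 to 0.773).

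Slfn3 has been linked to differentiation of the gut lining in the rat. It was low in every group. In Control it was at 1.2, 0.547, 1.15, 0.86 and 1.49 CPM, and in Model at 2.05, 0.639, 0.668, 1.07 and 0.849. In LNPIFN-Y it was at 2.72, 2.56, 2.16, 2.19 and 1.85 CPM, and in ptLNPIFN-Y at 1.84, 3.13, 1.21, 2.21 and 2.68. Model 1 was the library that overlapped LNPIFN-Y. The log2 fold change against Model was 1.12 ± 0.34 in LNPIFN-Y (SE, edgeR adjusted p 0.0673) and 1.06 ± 0.34 in ptLNPIFN-Y (0.0731). Without Model 1 both passed the test, at 1.48 (edgeR adjusted p 0.00933) and 1.43 (0.0101), and without ptLNPIFN-Y 3 the second passed at 1.22 (0.0346). DESeq2 called both with all libraries (adjusted p 0.0181 and 0.0237).

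Slfn4 is a gene of the myeloid lineage in the mouse, known from immature monocytes and granulocytes. In Control it was at 17.6, 16.5, 13.7, 11.4 and 9.07 CPM, and in Model at 8.47, 9.59, 2.49, 11.5 and 7.58. Model 3 stood well below the other 4. In LNPIFN-Y it was at 5.965, 21.8, 13.1, 17 and 15.3 CPM, and in ptLNPIFN-Y at 12.4, 18.2, 7.29, 7.14 and 12.8. All groups overlapped, and Slfn4 was the member with the smallest fold changes against Model, 0.885 ± 0.38 in LNPIFN-Y (log2, SE, edgeR adjusted p 0.209) and 0.55 ± 0.37 in ptLNPIFN-Y (0.385). Among 8 listed neutrophil genes 5 could be tested and 1 passed in either particle contrast, the colony-stimulating factor receptor Csf3r (log2 fold change 1.66 ± 0.45 and 1.78 ± 0.45, edgeR adjusted p 0.032 and 0.0183). Mmp8 lay the other way, at -2.30 ± 1.26 and -2.505 ± 1.27 (edgeR adjusted p 0.340 and 0.253). S100a8, S100a9 and Cxcr2 lay above 0 without passing. The summed level of the 8 genes ran from 8.52 to 25.4 CPM in Control and from 6.33 to 20.3 in Model. With LNPIFN-Y it ran from 11.9 to 37.2 and with ptLNPIFN-Y from 16.9 to 33.3, so all groups overlapped.

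Slfn5 is a long form, and its human counterpart is known as a nuclear co-repressor of transcription and a restriction factor for herpes virus. In Control it was at 19.2, 39.1, 22.7, 25.7 and 32 CPM, and in Model at 34.1, 54.1, 27.3, 26.4 and 20.7. Those groups overlapped over most of their range. In LNPIFN-Y it was at 174, 93.0, 59.3, 105 and 84.4 CPM, and in ptLNPIFN-Y at 132, 193, 64.1, 88.6 and 230. Replicate 3 was the lowest library in both particle groups, just above Model 2. The log2 fold change against Model was 1.66 ± 0.36 in LNPIFN-Y (SE, edgeR adjusted p 0.00629) and 2.12 ± 0.36 in ptLNPIFN-Y (0.00074). An antisense gene overlaps Slfn5 and strand use in counting is not given in the sources used here, so reads of these genes cannot be told apart.

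Slfn8 and Slfn9 are the long forms of the mouse closest to each other, with 92.7% identity over aligned coding bases. In Control Slfn8 was at 7.19, 5.95, 4.83, 11.9 and 9.01 CPM, and in Model at 11.4, 11.5, 11.7, 7.83 and 5.49. In LNPIFN-Y Slfn8 was at 91.0, 71.4, 46.2, 60.9 and 105 CPM, and in ptLNPIFN-Y at 44.6, 110.5, 53.4, 86.5 and 73.0. The lowest particle library, at 44.6 CPM, lay far above the highest Model library, at 11.7. Slfn8 had the smallest adjusted p of the family, 4.495e-06 in LNPIFN-Y (log2 fold change 2.97 ± 0.32, SE, edgeR) and 4.16e-06 in ptLNPIFN-Y (2.94 ± 0.32).

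Slfn9 rose as well. In Control it was at 35.2, 12.4, 15.3, 37.4 and 20.7 CPM, and in Model at 37.8, 29.8, 37.6, 18.2 and 20.1. In LNPIFN-Y it was at 88.5, 85.3, 76.6, 85.5 and 163 CPM, and in ptLNPIFN-Y at 44.9, 122, 86.6, 87.1 and 56.5. LNPIFN-Y 5 stood apart from the other 4 libraries of its group, and ptLNPIFN-Y 1 came nearest to Model 1. The log2 fold change against Model was 1.80 ± 0.35 in LNPIFN-Y (SE, edgeR adjusted p 0.00248) and 1.47 ± 0.34 in ptLNPIFN-Y (0.0107). Both calls held with each library of the groups compared left out in turn, at an edgeR adjusted p of up to 0.0123 and 0.0413.

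**Figure D2:**
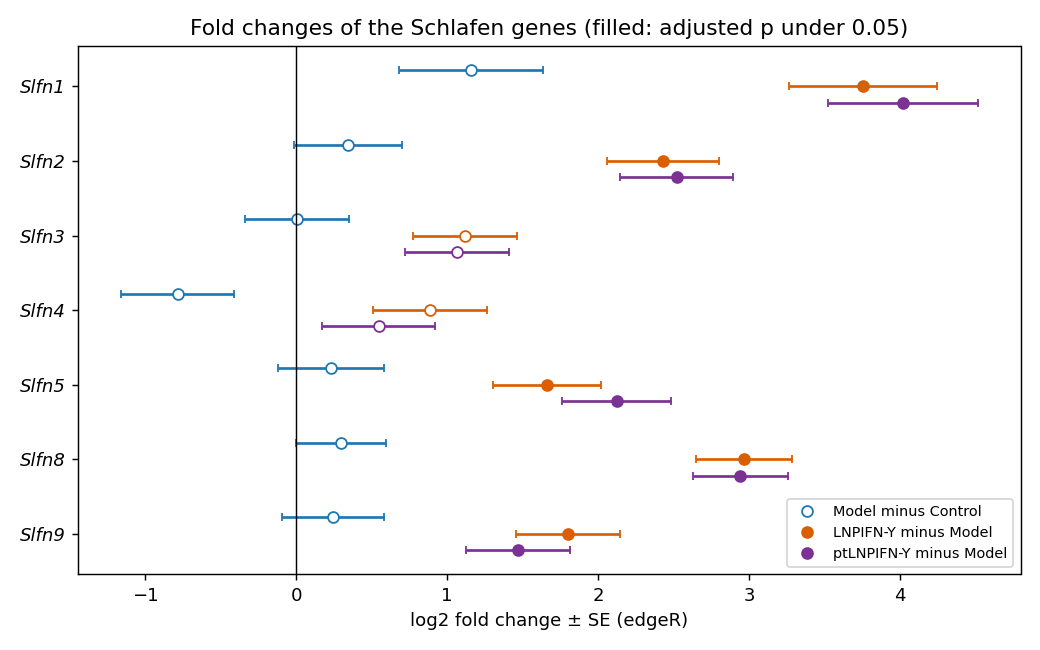
Log2 fold change and SE (bars) of each Schlafen gene in Model against Control, LNPIFN-Y against Model and ptLNPIFN-Y against Model; filled points passed the edgeR test. Slfn1 lies highest in both particle contrasts (3.75 and 4.02), and in Model against Control no point is filled.

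The family did not rise as a block. Ratios of the CPM of chosen pairs of members within a library were not corrected for length. These ratios were compared by an exact two-sided permutation test over 20 comparisons, in which 5 against 5 libraries allow no p below 0.00794. The Slfn8 to Slfn9 ratio was 0.273 to 0.431 in Model, 0.603 to 1.03 in LNPIFN-Y and 0.616 to 1.29 in ptLNPIFN-Y. Its log2 value was higher by 1.147 in LNPIFN-Y and by 1.465 in ptLNPIFN-Y, with an exact permutation p of 0.00794 each (adjusted 0.0318). All 5 libraries of either particle group lay above all Model libraries. The Slfn1 to Slfn2 ratio went from 0.061 to 0.173 in Model to 0.25 to 0.399 in LNPIFN-Y and 0.302 to 0.417 in ptLNPIFN-Y. Its log2 value was higher by 1.28 and 1.48, with the same exact permutation p of 0.00794 each (adjusted 0.0318).

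Slfn5 rose less than Slfn8 in LNPIFN-Y, where the log2 ratio of Slfn5 to Slfn8 was lower by 1.30 (difference -1.30, exact permutation p 0.00794, adjusted 0.0318). In ptLNPIFN-Y the difference was -0.86 and did not pass (exact permutation p 0.0556, adjusted 0.159), with libraries 1 and 5 at 2.95 and 3.15 and the others at 1.02 to 1.75. The difference between the particles in this ratio was 0.44 (exact permutation p 0.31, adjusted 0.442). The ratios of Slfn3 to Slfn4 and of Slfn5 to Slfn9 passed in 0 comparisons. With 1 library left out the smallest exact p is 0.0159, and with any library of Model, LNPIFN-Y or ptLNPIFN-Y left out the adjusted exact permutation p of all 5 calls was 0.0529 to 0.0635, also in contrasts that had lost no library, since the p-values were adjusted together. All 5 calls held with any Control library left out. In these sets the differences stayed between 1.03 and 1.61 in size for the 4 that were higher and between -1.43 and -1.11 for Slfn5 to Slfn8.

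**Figure D3:**
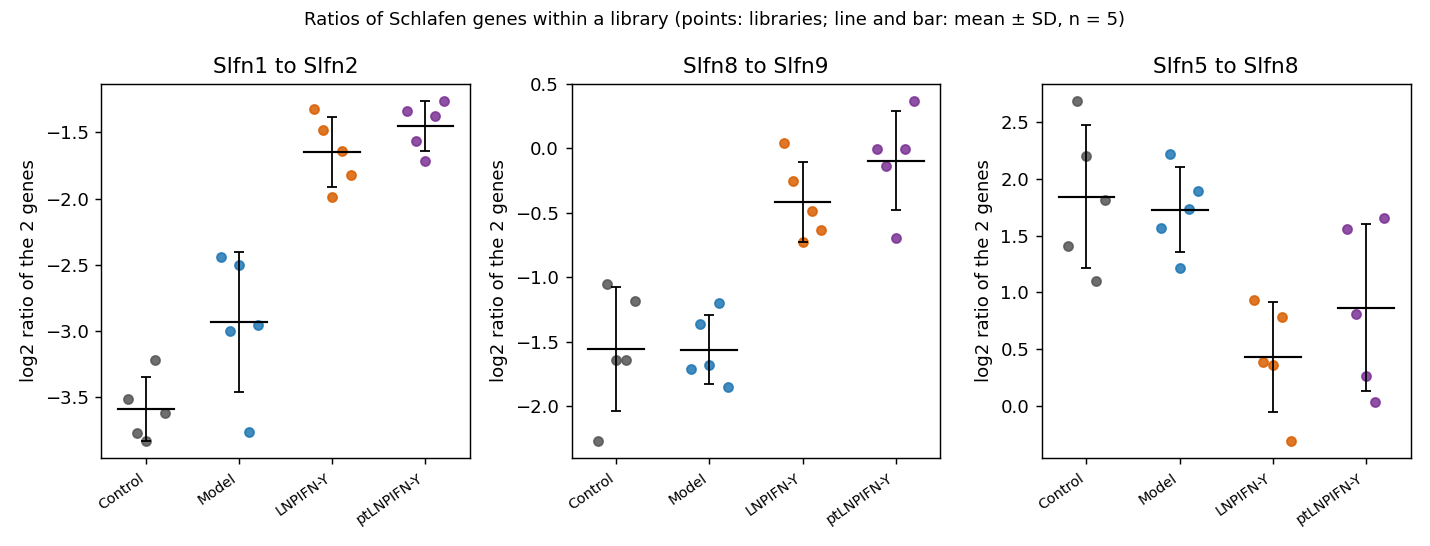
Log2 ratio of the CPM of a pair of Schlafen genes within each library (points), with the group mean and SD (n = 5). For Slfn1 to Slfn2 and Slfn8 to Slfn9 the particle libraries lie above all Model libraries, and for Slfn5 to Slfn8 the 5 LNPIFN-Y libraries lie below them.

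Near-identical copies can share reads. Slfn3 and Slfn4 have 95.3% identity over aligned coding bases and Slfn1 and Slfn2 have 68.4%. Of all 100-base stretches, 3.71% in Slfn8 and 3.9% in Slfn9 occur letter for letter in another family transcript, mostly in the pseudogene Slfn10-ps. In Slfn1, Slfn3 and Slfn5 none does. In Slfn2 and Slfn4 0.128% and 0.0518% do, each in the other of the pair. The values of Slfn8, Slfn9 and Slfn10-ps are therefore uncertain to the extent that RSEM divided such reads. With the counts of Slfn3 and LOC115489410 summed, an alternative chosen after seeing the data, the sum passed the test in LNPIFN-Y (log2 fold change 1.15, edgeR adjusted p 0.0414) and in ptLNPIFN-Y (edgeR adjusted p 0.0334). LOC115489410 held at most 8 counts in a Model library, and the low-count filter kept its row through the particle libraries. Its similarity to Slfn3 was not computed, so the sum is no measure of Slfn3 itself.

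Per kb of the deposited gene length, Slfn2 was the most abundant member in every group. Control averaged 5.93 ± 1.26 CPM per kb of Slfn2 and Model 7.54 ± 3.004, while LNPIFN-Y averaged 40.6 ± 22.9 and ptLNPIFN-Y 43.2 ± 14.1 (SD, n = 5). It made up 31.2% of the family total per kb in Control and 39.4% in ptLNPIFN-Y. Slfn1 went from 1.99% in Control and 3.95% in Model to 10.7% in LNPIFN-Y and 12.7% in ptLNPIFN-Y. Slfn4 went from 18.4% and 9.98% to 4.23% and 2.72%, although its own level did not pass the test. Summed over the 7 genes, Control held 85.04 ± 12.03 CPM and Model 93.9 ± 24.9, and LNPIFN-Y held 384 ± 120 against 407 ± 129 for ptLNPIFN-Y (SD, n = 5). The shares depend on the lengths, and for Slfn9 the deposited length of 10489 bases is longer than its annotated transcript of 5769 bases.

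**Figure D4:**
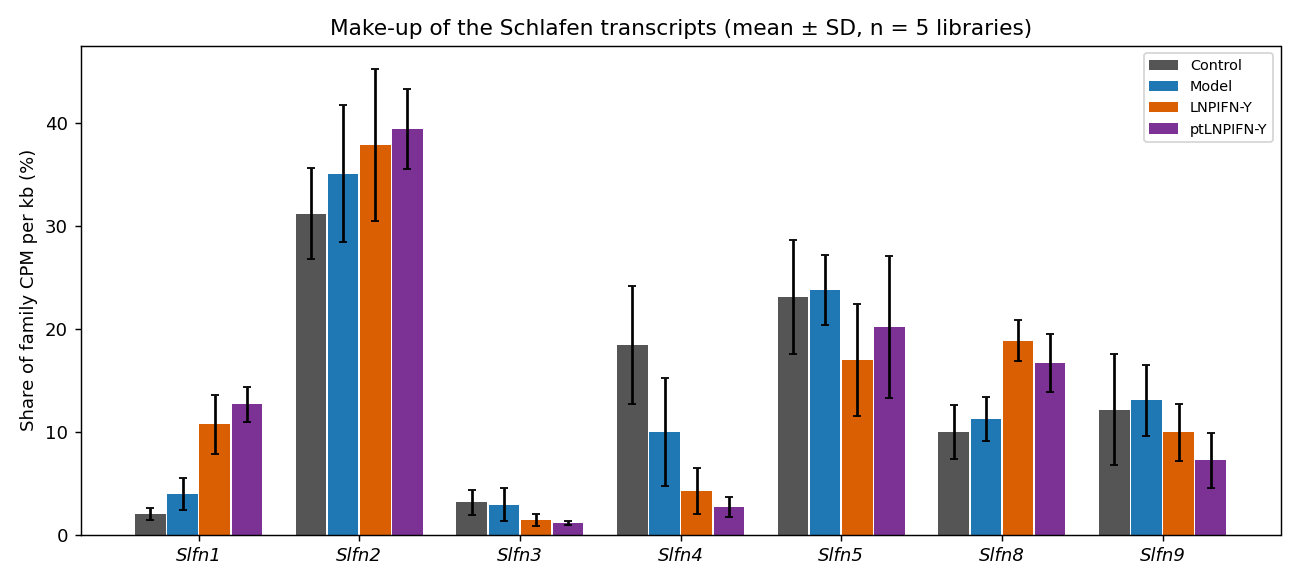
Share of each Schlafen gene in the family total of CPM per kb (percent), as the mean and SD of 5 libraries in each of the 4 groups. Slfn2 holds the largest mean share in every group, from 31.2% to 39.4%, and the share of Slfn1 is higher and that of Slfn4 lower in the particle groups.

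The genes next to the cluster were read from the same fit. Of the 8 protein-coding genes on each side, 16 in all, 14 could be tested. In LNPIFN-Y against Model 0 were higher and 0 lower, and in ptLNPIFN-Y 0 were higher and 1 lower, the DNA ligase gene Lig3 (log2 fold change -0.42 ± 0.11, edgeR adjusted p 0.0201). Their median log2 fold changes were -0.13 and -0.10, near those of all genes. Inside the cluster the pseudogene Slfn10-ps rose by 1.88 ± 0.44 in LNPIFN-Y (log2, SE, edgeR adjusted p 0.0121) and by 1.60 ± 0.44 in ptLNPIFN-Y (0.031), from 0.501 ± 0.330 CPM in Model to 1.86 ± 0.416 and 1.54 ± 0.693 (SD, n = 5). Slfn10-ps held only 5 to 12 counts per Control library and 2 to 17 per Model library. Too few of these libraries reached 10 counts for the low-count filter, so the row was kept through the particle libraries. Reads that it shares with Slfn8 and Slfn9 were not told apart. Slfn14, whose human counterpart is known from inherited platelet disorders, averaged 4.43 ± 1.37 CPM in Model against 2.19 ± 1.99 with LNPIFN-Y and 2.53 ± 0.836 with ptLNPIFN-Y (SD, n = 5). Its log2 fold changes of -1.01 ± 0.52 and -0.80 ± 0.51 did not pass (edgeR adjusted p 0.306 and 0.353). LOC115489410, a row annotated as schlafen 12-like, averaged 0.280 ± 0.195 CPM in Model, and its log2 fold changes of 1.24 ± 0.67 and 1.48 ± 0.67 did not pass (edgeR adjusted p 0.334 and 0.2). That row held 0 to 3 counts per Control library and 1.1 to 8 per Model library, so the filter kept it, too, through the particle libraries. Slfnl1, a relative on chromosome 4, had 0 to 4 counts per library and was not tested.

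**Figure D5:**
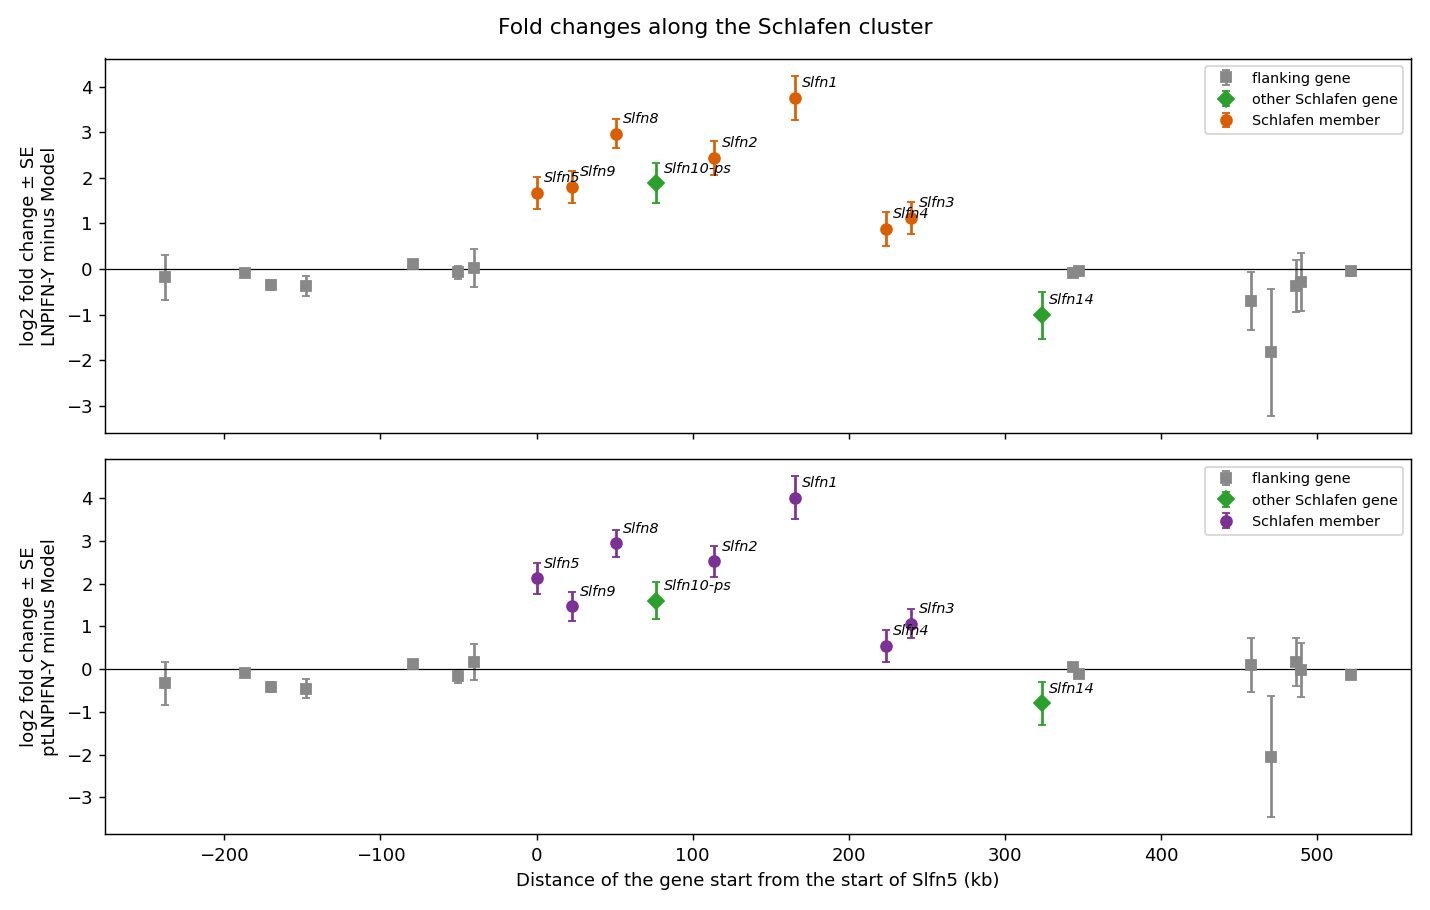
Log2 fold change (with SE bars) of the Schlafen genes and their protein-coding neighbours in both particle groups against Model, by the distance in kb of the lower end of each gene from that of Slfn5. The members between 0 and 240 kb lie above 0 in both contrasts, and the tested neighbours on either side lie at 0.16 or below.

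Most genes of the interferon signalling list, which holds IFN-γ itself, receptors, signalling factors and induced genes such as Isg15, rose in the same contrasts. Of 21 tested genes of that list (22 listed) 14 were higher and 0 lower in LNPIFN-Y, and 15 were higher and 0 lower in ptLNPIFN-Y, with median log2 fold changes of 1.28 and 1.18. Those counts hold Ifng, the gene of the ligand that the particles carry as mRNA, which rose by 3.28 ± 0.70 and 3.19 ± 0.70 (log2, SE, edgeR adjusted p 0.00584 and 0.006125), and reads of delivered and of the animals' own mRNA were not told apart. Ifng averaged only 0.0447 CPM in Control and 0.116 in Model, against 1.18 with LNPIFN-Y and 1.11 with ptLNPIFN-Y. Its row was therefore kept by the low-count filter through the particle libraries, and its folds rest on a base near 0. Irf1, an interferon-induced transcription factor, rose by 2.47 ± 0.22 and 2.755 ± 0.22 (log2, SE, edgeR adjusted p 5.13e-07 and 1.44e-07). Of the factors that act at the response element, Stat2 rose by 2.41 ± 0.15 and 2.37 ± 0.15 and Irf9 by 1.28 ± 0.10 and 1.18 ± 0.10 (edgeR adjusted p of 2.57e-07 or less). The receptor genes Ifngr1 (0.55 ± 0.21 and 0.63 ± 0.21) and Ifnar1 (0.15 ± 0.12 and -0.06 ± 0.12) did not pass. Against Control the values in LNPIFN-Y and ptLNPIFN-Y were 2.72 and 3.002 for Irf1, 2.68 and 2.63 for Stat2, 1.455 and 1.36 for Irf9, and 0.67 and 0.76 for Ifngr1, all past the test, and 0.21 and -0.0003 for Ifnar1, not past it. Between the particles these 5 genes lay from -0.21 to 0.28 with an edgeR adjusted p of 1.0.

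Markers of several leukocyte types moved with the Schlafen genes. All 10 T cell genes in the table (11 listed) and all 8 NK cell genes passed in both particle groups against Model. The summed T cell level ran from 9.70 to 13.1 CPM in Control and 15.1 to 29.7 in Model, and from 47.3 to 111 with LNPIFN-Y and 62.0 to 178.5 with ptLNPIFN-Y. For NK cells the ranges were 3.16 to 7.31, 4.24 to 7.65, 31.25 to 64.6 and 31.2 to 78.3 CPM in the same order. Of 12 monocyte and macrophage genes 8 rose in LNPIFN-Y and 6 in ptLNPIFN-Y, with median log2 fold changes of 1.38 and 1.24. The largest was that of the inflammatory monocyte marker Ly6c2, at 4.17 ± 0.56 and 4.575 ± 0.57 (edgeR adjusted p 6.85e-05 and 2.44e-05). Cd14 lay below 0 in both contrasts, and Itgam in ptLNPIFN-Y, without passing. The summed level of the 12 genes ran from 339 to 572 CPM in Control and 309 to 1063 in Model. It ran from 1030 to 3145 CPM with LNPIFN-Y and 1186 to 2444 with ptLNPIFN-Y. Of 7 dendritic cell genes 2 rose in LNPIFN-Y (Xcr1 and Clec9a) and 4 in ptLNPIFN-Y (with Flt3 and Ccr7), and Cd209a fell in both. Of 6 B cell genes 0 rose in LNPIFN-Y, with median log2 fold change 0.91, and 4 rose in ptLNPIFN-Y, with median 2.36. The summed B cell level ran from 3.24 to 7.29 CPM in Control, 4.24 to 18.7 in Model and 14.5 to 31.3 with LNPIFN-Y. With ptLNPIFN-Y it ran from 9.34 to 144 CPM with a median of 21.8, so that group overlapped Model and was widely spread. Between the particles 0 of the 6 passed. None of the 3 tested platelet genes, 8 granulosa, 6 oocyte, 6 oviduct or 5 adipocyte genes passed in these contrasts. The part of these cells in the levels of the Schlafen genes was not tested.

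The gene whose level ran most like each member differed between members, although Slfn1 and Slfn2 ran alike and shared high-ranking genes. Over the 20 libraries, which share the group differences, Pearson r of log2 CPM among 13256 genes was highest for Slfn1 with Phf11b (0.9915), for Slfn2 with Ptprc, the leukocyte common antigen CD45 (0.986), and for Slfn8 with Trim30a (0.9925) and the ubiquitin-like gene Isg15 (0.991). For Slfn5 it was highest with Parp3 (0.965), and for Slfn9 with Trim25 (0.97), a ligase gene of RNA sensing, and Zc3hav1 (0.966), which encodes the antiviral protein ZAP. Slfn3 (Fut4, 0.913) and Slfn4 (Zfp947, 0.799) had lower best values. After each group mean was subtracted, Slfn2 ran most like the leukocyte membrane gene Cd53 (0.94), Slfn8 most like Trex1 (0.924), Slfn5 most like Vegfd (0.932), and Slfn9 most like the S-phase genes E2f8 (0.915) and Cdc6 (0.914). These values are descriptions of the 20 libraries, which also share differences in tissue content.

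Between the particles no Schlafen gene passed, and 0 of all tested genes were higher and 0 lower with edgeR (0% each). Without adjustment 481 genes and 0 members had a p under 0.05. The log2 difference of ptLNPIFN-Y from LNPIFN-Y was 0.27 for Slfn1 (95% interval -0.66 to 1.19), 0.09 for Slfn2 (-0.65 to 0.83), -0.05 for Slfn3 (-0.77 to 0.66) and -0.34 for Slfn4 (-1.13 to 0.45). It was 0.46 for Slfn5 (-0.28 to 1.196), -0.02 for Slfn8 (-0.64 to 0.59) and -0.33 for Slfn9 (-1.04 to 0.38). The intervals do not show that the particles act alike, since they reach past a difference of 0.5 on the log2 scale in each gene. No member had groups without overlap, a pattern seen in 0.102% of genes upward and 0.089% downward.

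The tumour model alone changed no Schlafen gene past the test. In Model against Control 0 members and 0 genes of the whole table were higher or lower with edgeR (0% each), while 772 genes and 1 member had an unadjusted p under 0.05 and DESeq2 called 27 genes higher and 2 lower. The member was Slfn1, which stood 1.16 ± 0.48 above Control on the log2 scale (SE, edgeR adjusted p 0.936) and lay above all Control libraries in 4 of 5. Slfn4 was at -0.79 ± 0.38 (edgeR adjusted p 0.936), with a 95% interval from -1.58 to 0.01. The other 5 members lay between 0.01 and 0.34 with an edgeR adjusted p of 0.936 or more. No member was without overlap, a pattern seen in 0.572% of genes upward and 0.223% downward.

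Against the tumour-free Control, 6 of 7 members were higher and 0 lower in LNPIFN-Y, where 10.8% of all genes were higher and 3.28% lower. In ptLNPIFN-Y 6 of 7 were higher and 0 lower, where 12.2% of all genes were higher and 5.39% lower. For LNPIFN-Y 6 members had no overlap with Control (13% of all genes upward) and for ptLNPIFN-Y 5 had none (11.1%). These contrasts share their Control libraries with each other and their particle libraries with the contrasts above. Slfn1 was 30.0-fold and 36.1-fold higher (log2 fold change 4.91 ± 0.52 and 5.17 ± 0.53, edgeR). The sixth member was Slfn3, at 1.12 ± 0.34 (edgeR adjusted p 0.0366) and 1.07 ± 0.34 (0.04). Its calls were close to the threshold: the adjusted p was 0.05004 to 0.0932 in LNPIFN-Y without any 1 of Control 1, 2, 3 or 4 or LNPIFN-Y 1, 2 or 5, and 0.0636 to 0.0953 in ptLNPIFN-Y without any 1 of Control 1, 2, 3 or 4 or ptLNPIFN-Y 2, 4 or 5. Slfn4 was at 0.10 ± 0.37 and -0.24 ± 0.37 (edgeR adjusted p 0.865 and 0.659), with 95% intervals of -0.69 to 0.89 and -1.03 to 0.55.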

How the data were processed

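Libraries of oligo(dT)-captured RNA, 20 in 4 groups, were read on a DNBSEQ platform, per the labels' protocols. HISAT2, StringTie, RSEM, DESeq2 and the build GRCm38.p6 are named without versions, per the submitters' processing notes; the gene annotation and strand use are not given in the sources used here. The table deposited by the authors holds expected counts for 20960 genes, of which 9.85% of values carry decimals, besides 1 emptied row that was not used. Expected counts were rounded and tested in R 4.3.3 with edgeR 4.0.16 (filterByExpr with a minimum count of 10, TMM, glmQLFit and glmQLFTest over all libraries, Benjamini-Hochberg adjustment over 15723 genes). The SE is the log2 fold change divided by the root of F, and 95% intervals use 16 residual degrees of freedom at the least. CPM uses TMM-scaled library sizes, and log2 CPM adds a prior count of 2. Gene lengths are those deposited by the authors. Pair ratios used exact permutation tests (SciPy 1.17.1). Promoters came from RefSeq windows of GRCm38.p6, and coding sequences of GENCODE transcripts were aligned with MAFFT 7.526. The scripts were tested on simulated data. The members, the lists and the naming rule were chosen with earlier results of these data known. The rule named all members, their relatives, interferon signalling genes, of which 1 is not reported here, and, per member, the 3 genes of highest Pearson r, of which some are printed; Csf3r, Ly6c2, Lig3, Ifng and the dendritic cell genes were named after their values were seen. All libraries carry batch label 1, so batch could not be examined. Replicate numbers did not pair the libraries. Alternatives were DESeq2 1.42.0, upper-quartile scaling, library size alone, no low-count filter, the 2 groups alone, quality weights (limma 3.58.1), the replicate block and leaving out each library; 2 more were chosen after seeing the data. Figures were drawn with matplotlib 3.10.9.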

Additional observations from a re-analysis of the deposited data

Results flagged for a closer look

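In 48 tests for a library apart from the rest of its group of 5, 3 were flagged, and chance flags about 1 in 20. For Slfn4, Model 3 was the lowest of its group at 2.49 CPM, with a gap to the next library that was 0.725 of the range of log2 CPM. For Slfn9, LNPIFN-Y 5 was the highest of its group at 163 CPM, with a gap of 0.809 of the range. For the Slfn3 to Slfn4 log2 ratio, LNPIFN-Y 1 was the highest of its group at a ratio of 0.457, with a gap of 0.742 of the range, and the other 4 libraries lay at 0.117 to 0.165.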

How the results depend on the processing

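Slfn1, Slfn2, Slfn5, Slfn8 and Slfn9 stayed past the test against Model in either particle group with each library of the groups compared left out in turn. The count of members higher ranged from 5 to 6 in the contrasts of each particle group with Model and with Control. Over all settings 780 of the members' values kept direction and side of the threshold, 9 newly passed, 21 no longer passed and 30 changed sign, the last all in uncalled contrasts. Slfn3 in Model against Control was at -0.029 with upper-quartile scaling, -0.019 with library size alone, -0.0038 with no low-count filter and -0.055 with the replicate block, and between -0.37 and 0.17 with 1 library left out. With quality weights Slfn8 was at -0.00063 and Slfn9 at -0.32 in that contrast, and Slfn5 lay between -0.031 and 0.385 with 1 library left out. Between the particles, quality weights gave 0.022 for Slfn3, 0.36 for Slfn8 and 0.070 for Slfn9, the sum with LOC115489410 0.018 for Slfn3, and the set that lacks the Zp3-free libraries 0.10 for Slfn8. With 1 library left out Slfn2 lay between -0.10 and 0.42, Slfn3 between -0.21 and 0.10 and Slfn8 between -0.22 and 0.13 there, and Slfn4 in LNPIFN-Y against Control lay between -0.10 and 0.30, or at -0.014 with library size alone. The cause of these changes was not tested.

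Among pair ratios with no call, leaving out 1 library gave a range of -0.18 to 0.12 for Slfn8 to Slfn9, -0.30 to 0.10 for Slfn5 to Slfn8 and -0.41 to 0.22 for Slfn5 to Slfn9 in Model against Control, and of -0.12 to 0.48 for Slfn3 to Slfn4 and -0.39 to 0.088 for Slfn5 to Slfn9 in LNPIFN-Y against Model. The count of ratios past the threshold ranged from 0 to 5. With the replicate block it was 0, since 5 pairs allow no p below 0.0625.

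Counts over all genes moved more. DESeq2 called 27 higher and 2 lower in Model against Control. Genes higher in LNPIFN-Y against Model numbered 543 with the 2 groups alone and 1339 with quality weights, and 595 to 1246 with 1 library left out. Lower genes numbered 492 with DESeq2, 219 with library size alone, 8 with the 2 groups alone, 580 with quality weights, 33 with the replicate block and 37 without the Zp3-free libraries, and 29 to 486 with 1 library left out. In ptLNPIFN-Y against Model higher genes numbered 1946 with quality weights and 713 to 1578 with 1 library left out, and lower genes 627 with DESeq2, 226 with upper-quartile scaling, 731 with library size alone, 44 with the 2 groups alone, 766 with quality weights, 79 with the block, 97 without the Zp3-free libraries and 57 to 685 with 1 library left out. Against Control quality weights gave 2735 and 3443 higher genes, with 1120 to 1865 and 1300 to 2312 when 1 library was left out. Of 30 same-numbered pairs of libraries 11 deviated together with a correlation over 0.1, from -0.698 to 0.760, and 5 were best matches, so the block does not stand for a known pairing. With it Slfn3 missed the threshold against Control (adjusted p 0.0559 and 0.0565) and no other member's call changed. Upper-quartile scaling (0.0513 and 0.0554) and library size alone (0.0566 and 0.066) ended the same calls. Without the Zp3-free libraries its call in ptLNPIFN-Y against Control ended (log2 fold change 0.99, adjusted p 0.0758), which left 5 members higher there. Slfn1 in Control rests on 9 to 22 counts per library, which limits the precision of its folds.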
